A study of Mus musculus with 4 samples.

Results

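The genes described here encode the subunits of the ionotropic and metabotropic glutamate receptors and of the GABA-A receptors, known mainly from the nervous system. They are described as seen in the chromatin of a mouse macrophage line. Members were chosen by gene name alone: every accessible region whose nearest gene, as assigned by the authors, is a Gria, Grid, Grik, Grin, Grm or Gabr gene of the receptor subunit series. The rule took 64 of 80929 regions, on 12 chromosomes, and 25 of 26614 gene names. The gene table held 45 protein-coding genes with such names, and 20 of them, among them every GABA-A beta subunit gene, had no region in the tables used here. RAW264.7 is a mouse macrophage-like cell line that grows in culture. Open chromatin was read by ATAC-seq: a transposase cuts accessible DNA and tags the cut ends for sequencing. Cells were seeded at 1000000 per well and kept for 48 h with a hydrogel. By sample title, 2 libraries belong to the group Gel and 2 to the group CuNZ@Gel, whose name the series title ties to a nanozyme hydrogel. The treatment text of all 4 samples mentions CuNZ@Gel and no other gel, so the Gel group is known by its titles alone. Both groups come from the same cell line, and no group of cells without any gel was analysed here. Whether the replicates of a group came from separate cultures is not stated, so each p-value reflects library-to-library spread that may be technical.

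Glutamate is the main excitatory and GABA the main inhibitory transmitter of the brain. AMPA, kainate and NMDA receptors are cation channels that glutamate opens. The delta subunits share their fold but work mainly as synaptic organisers. Metabotropic glutamate receptors signal through G proteins. GABA-A receptors are chloride channels built from a choice of alpha, beta, gamma and other subunits, and the rho subunits form channels that are best known from the retina. Most of these genes are transcribed mainly in neurons. In many other cell types, the repressor REST binds neuronal genes at a long motif with a left and a right part.

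Windows of 250 bases before a gene start were available for 17 of the 25 genes, as 19 windows from RefSeq on GRCm38.p6. The accessible regions carry GRCm39 coordinates, so the windows were not placed against the regions. The first pair of windows is shown because both hold a part of the REST motif, and because the Gria2 region had no read in either Gel library. The Gria2 window lies at chr3:80802836-80803085 (minus strand) and the Grm2 window at chr9:106656110-106656359 (minus strand). Capitals mark the left part TTCAGCA and the right part GGACAGC on either strand.
Gria2: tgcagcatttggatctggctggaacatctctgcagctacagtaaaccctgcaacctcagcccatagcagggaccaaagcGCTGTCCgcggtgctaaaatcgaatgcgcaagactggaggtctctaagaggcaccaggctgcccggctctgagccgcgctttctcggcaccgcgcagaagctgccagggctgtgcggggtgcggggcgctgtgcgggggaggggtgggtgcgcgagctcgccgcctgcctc
Grm2: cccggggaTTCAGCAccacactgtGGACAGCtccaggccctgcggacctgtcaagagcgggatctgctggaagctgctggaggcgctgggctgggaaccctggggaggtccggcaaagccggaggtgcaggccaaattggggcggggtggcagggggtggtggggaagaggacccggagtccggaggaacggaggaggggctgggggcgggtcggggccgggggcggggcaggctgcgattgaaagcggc
In Gria2 the match is the right part, read on the opposite strand, and starts at base -171, counting the base before the gene start as -1. In Grm2, which encodes a presynaptic metabotropic receptor, the left part starts at base -242 and the right part at base -226. The left part was in 4 of the 19 receptor windows (Grm2, Grm3, Gabra5 and Gabrp) and in 3.81% of all 32851 windows. The right part was in 2 of the 19 (Gria2 and Grm2) and in 5.28% of all windows. A match of 7 letters is a description of the sequence and not a binding site. Motifs of macrophage factors were also searched on both strands. The AP-1 letters TGANTCA were in 2 of the 19 windows (Grm8 and Grin3b) and in 6.75% of all windows. The PU.1 core GAGGAAG was in 2 of the 19 (Grm8 and Gabrr3) and in 10.6% of all windows.

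The second set of windows shows a rising and a falling gene of each family: Grik4 and Gabrr2, whose summed accessibility was higher in CuNZ@Gel, and Grin2c and Gabrr1, whose sum was lower. They lie at chr9:42944372-42944621 (minus strand), chr4:33062862-33063111 (plus strand), chr11:115267244-115267493 (minus strand) and chr4:33132306-33132555 (plus strand). Capitals mark each CpG, the base pair step that is dense in CpG island promoters.
Grik4: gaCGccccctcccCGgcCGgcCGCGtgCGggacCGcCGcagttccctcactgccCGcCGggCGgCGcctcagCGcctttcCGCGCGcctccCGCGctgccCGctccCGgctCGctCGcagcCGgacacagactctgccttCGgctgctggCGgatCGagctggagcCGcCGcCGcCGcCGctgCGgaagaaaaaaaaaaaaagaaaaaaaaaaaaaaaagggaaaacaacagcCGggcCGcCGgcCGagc
Gabrr2: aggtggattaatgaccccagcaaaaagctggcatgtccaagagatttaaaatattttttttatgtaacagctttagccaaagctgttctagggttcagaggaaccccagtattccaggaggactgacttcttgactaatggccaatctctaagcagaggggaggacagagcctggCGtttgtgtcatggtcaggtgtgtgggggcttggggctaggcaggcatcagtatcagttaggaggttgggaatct
Grin2c: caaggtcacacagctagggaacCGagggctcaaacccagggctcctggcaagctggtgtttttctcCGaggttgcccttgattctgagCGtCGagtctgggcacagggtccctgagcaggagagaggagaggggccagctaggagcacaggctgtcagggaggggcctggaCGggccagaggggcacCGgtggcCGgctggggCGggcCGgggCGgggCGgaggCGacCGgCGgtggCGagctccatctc
Gabrr1: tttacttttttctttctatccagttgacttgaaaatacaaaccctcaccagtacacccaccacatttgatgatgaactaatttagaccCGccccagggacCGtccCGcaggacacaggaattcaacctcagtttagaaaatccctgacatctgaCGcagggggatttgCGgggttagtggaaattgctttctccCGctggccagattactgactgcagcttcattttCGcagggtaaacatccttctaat
Grik4 had 36 CpGs and Grin2c 15, against 1 in Gabrr2 and 7 in Gabrr1. The windows of all 19 receptor starts had a median of 8 CpGs, and those of all genes a median of 6. The rising genes thus held the highest and the lowest count of these 4. The letters CG were in 92.1% of all windows.

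The values are RPM, the reads of a region per 1000000 effective reads of its library, and changes are CuNZ@Gel minus Gel on the log2(RPM + 1) scale, which understates the change of low values. A region or gene counts as called when limma's adjusted p over all features tested is under 0.05. Both Gel libraries were deeper, with 18843789 and 17914927 reads inside regions, than the CuNZ@Gel ones, with 7440761 and 10236518. A CuNZ@Gel level therefore rests on fewer reads than a Gel level. Divided by the genome background that the peak lists imply, these reads came to 18.8 and 18.6 (in units of 1e6) for Gel but 6.37 and 8.53 for CuNZ@Gel. This difference goes with every comparison below, and its part in the results was not tested. The regions are the merged peaks of these same libraries, so a region with reads in CuNZ@Gel alone is in the table because of that peak. In a bulk library, more cells with an open region and a more open region per cell cannot be told apart.

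Across the receptor genes, accessibility was more often higher than lower in CuNZ@Gel, on the deposited scaling. Of the 25 genes, 23 had enough reads for the test. Limma called 10 higher (20.5% of all genes tested): Gria1, Gria2, Grid1, Grik4, Grik5, Grin3a, Grm4, Grm5, Gabra5 and Gabrr2. It called 2 lower (36.1% of all genes tested), Grin2c and Gabrr1, and left 11 without a call. The median change was 0.34, against -0.10 over all genes tested. The groups did not overlap, with CuNZ@Gel above, in 13 of the 23 genes (30.9% of all genes) and with CuNZ@Gel below in 3 (45.9% of all genes). Gria4 and Grm3 had too few reads to be tested. Without the general trend of change with level, 6 of the 10 were still called higher (20.7% of all genes): Gria1, Gabra5, Gabrr2, Grid1, Grik4 and Grm4. Both lower calls were kept there (15.4% of all genes). On a scale set by the genome background, the direction turned: 1 gene, Gria2, was called higher (2.78% of all genes) and 11 lower (75.5%), and the median was -0.54. The single region of Gria2 passed the read filter through the CuNZ@Gel libraries alone, so that a higher value was built into its call here and among the 10. The sum of Gria1 includes 1 region that passed in the same way, so its calls among the 10 and the 6 were partly built in. On the background scale the median of all genes moved from -0.10 to -1.06. Directions below are therefore relative to the deposited scaling.

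**Figure D1:**
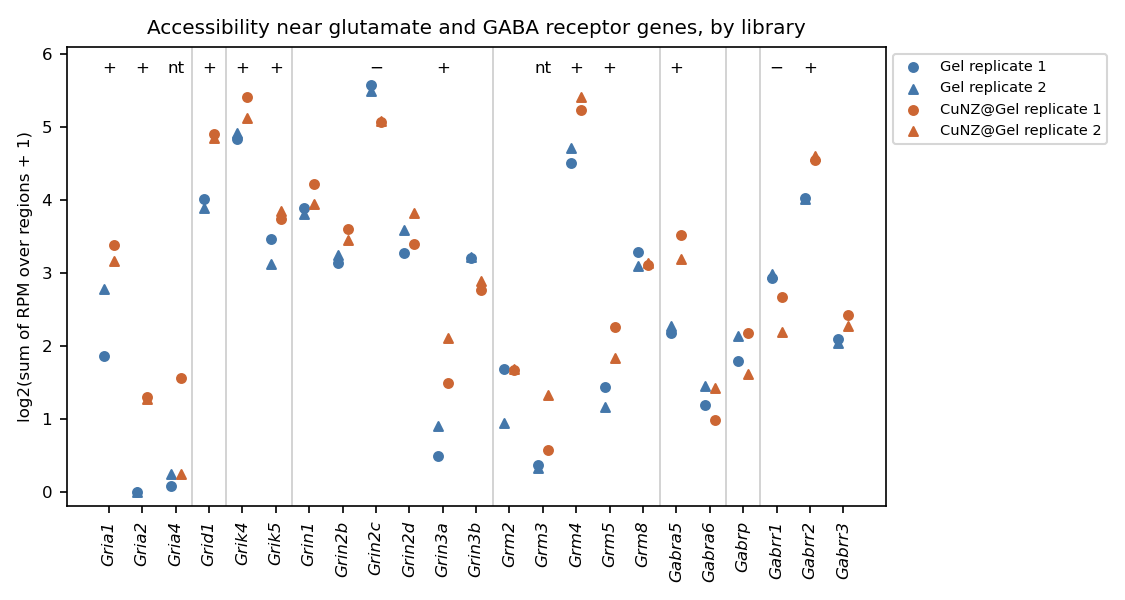
Summed accessibility near each receptor gene, as log2(sum of RPM over its regions + 1), for 23 of the 25 genes, ordered by receptor class (grey lines part the classes). Points are single libraries, circles replicate 1 and triangles replicate 2; a plus or minus sign marks a gene called higher or lower in CuNZ@Gel, and nt one not tested. The CuNZ@Gel points lie above both Gel points in all 10 genes called higher.

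At the level of single regions the picture was close to the whole table for rises and thinner for falls, without regard to level. In both level bands from percentile 25 to 75, given further on, the receptor share of falls was not below that of all regions. Of the 64 regions, 58 were tested. Limma called 13 higher (21.2% of all regions tested) and 5 lower (21.9% of all regions tested), which is 22.4% and 8.62% of the 58. The other 40 were not called. The median change was 0.24. Regions with both CuNZ@Gel values above both Gel values numbered 24 of 58 (33.7% of all regions) and those with both below numbered 10 (34.6%). Without the trend with level, 9 of the 13 (18.8% of all regions) and all 5 lower regions (13.8%) kept their call. On the background scale 3 were called higher (4.85% of all regions) and 24 lower (60.6%). Of the 58 tested regions, 3 passed the read filter through the CuNZ@Gel libraries alone: the Gria2 region, 1 Gria1 region and 1 Grid1 region. For these a higher CuNZ@Gel value was built into the filter, and the first 2 are among the 13.

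**Figure D2:**
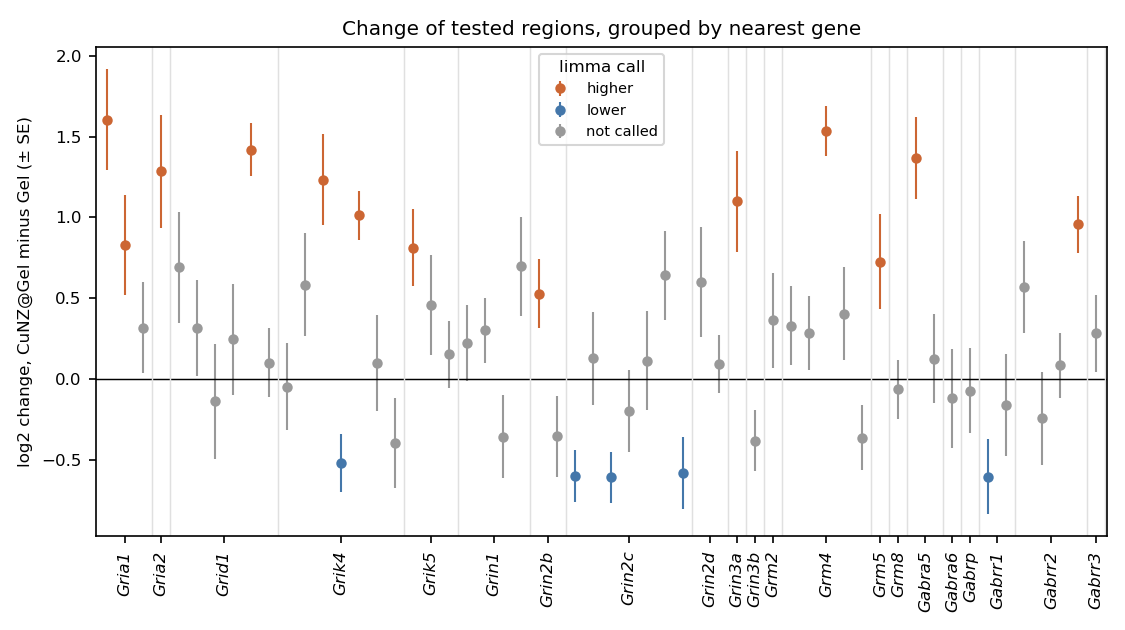
Log2 change, CuNZ@Gel minus Gel, of the tested regions of 21 receptor genes, each with its standard error, grouped along the horizontal axis by nearest gene and ordered by receptor class. The 13 regions called higher stand above the zero line in 11 genes, and the 5 called lower belong to Grin2c, Grik4 and Gabrr1.

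Among the AMPA receptor genes, Gria1 and Gria2 rose from low levels. Gria1 encodes a subunit whose insertion at synapses underlies long-term potentiation, and Gria2 the subunit that makes the channel impermeable to calcium. Summed over its 4 regions, Gria1 was at 2.62 and 5.88 RPM in Gel and at 9.46 and 8.0 RPM in CuNZ@Gel. The change was 0.96 ± 0.25 (log2 ± SE, limma adjusted p = 0.00253), and the groups did not overlap. It was 0.50 without Gel replicate 1 (adjusted p = 0.119), 0.63 with the trend removed (adjusted p = 0.0347) and 0.06 on the background scale. The region that moved most, at chr11:56791876-56792197, held 8 and 2 reads in Gel and 23 and 34 reads in CuNZ@Gel, or 0.466 and 0.123 RPM against 2.79 and 3.02 RPM. Its change was 1.60 ± 0.31, or 1.10 on the background scale and 3.08 and 3.40 with a pseudocount of 0.1 RPM and in voom. It passed the read filter through the CuNZ@Gel libraries alone, so its call is given as a description. The sum of Gria1 includes this region, so the rise and call of the gene were partly built in. The mean of the region went from 0.295 to 2.91 RPM, and that of the gene from 4.25 to 8.73 RPM. A second region, at chr11:57060845-57061014, went from 0.583 and 0.866 to 2.06 and 2.04 RPM, a change of 0.83 ± 0.31 (limma adjusted p = 0.0251). This call was lost on the background scale (0.25), with the trend removed (0.50, adjusted p = 0.224), without Gel replicate 1 (0.71) and without Gel replicate 2 (0.95). The strongest Gria1 region, at chr11:57113367-57113952, had overlapping groups, with 1.40 and 4.02 RPM in Gel and 4.37 and 2.49 RPM in CuNZ@Gel.

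The single Gria2 region, at chr3:80718590-80718772, held 0 reads in both Gel libraries and 12 and 16 reads in the CuNZ@Gel libraries. CuNZ@Gel was at 1.46 and 1.42 RPM. Set against a floor of 3 reads over the Gel group (0.0901 RPM), the pooled CuNZ@Gel level of 1.44 RPM was at least 15.9-fold higher. These are counting limits only. The peak behind this region was listed for CuNZ@Gel replicate 2 alone, with an authors' fold enrichment of 4.09. The region passed the read filter through CuNZ@Gel alone, so its higher call is given as a description, and it was not called with the trend with level removed (adjusted p = 0.0616). The next regions lay 337 kb before it and 208 kb after it, so it stood alone in its stretch of chromosome. Gria4, a subunit of fast AMPA receptors, had 1 region with 1 and 3 reads in Gel and 16 and 2 reads in CuNZ@Gel, and its groups overlapped.

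Grid1, the delta subunit gene expressed widely in the forebrain, rose through 1 of the regions named for it. Its 6 regions summed to 15.1 and 13.8 RPM in Gel and to 28.9 and 28.0 RPM in CuNZ@Gel, a change of 0.93 ± 0.12 (limma adjusted p = 2.11e-06). The region at chr14:34694113-34695327 went from 5.42 and 6.74 to 18.3 and 17.4 RPM. Its change was 1.42 ± 0.16 (limma adjusted p = 4.82e-10), and all 4 libraries had a peak there, with authors' folds of 10.4, 10.1, 9.17 and 9.30. The other 5 Grid1 regions were not called, with changes from -0.14 to 0.69. The nearest of them lay 55.4 kb away, at 5.19 and 4.76 RPM in Gel and 6.19 and 4.71 RPM in CuNZ@Gel, with overlapping groups. Regions named for other genes also rose near the rising Grid1 region. A Mir346 region 83.9 kb before it changed by 0.84 (limma adjusted p = 0.0486). With a Gel mean of 0.18 RPM, that region passed the read filter through the CuNZ@Gel libraries alone. A higher value was thus built into its call, which is given as a description. A Gm41133 region 78.1 kb after it changed by 1.81 (limma adjusted p = 4.06e-07). Another Mir346 region, 111 kb before it, was not called (0.52). On the background scale the gene stood at -0.08 and the rising region at 0.46 (limma adjusted p = 0.112).

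Of the kainate receptor genes, Grik4 held regions that were called in both directions, which no other receptor gene did. Grik4 and Grik5 encode the high-affinity kainate subunits, which need a partner subunit to form a channel. Summed over 7 regions, Grik4 was at 27.6 and 29.4 RPM in Gel and at 41.7 and 34.0 RPM in CuNZ@Gel, a change of 0.39 ± 0.11 (limma adjusted p = 0.00444). The region at chr9:42782974-42783634 went from 9.33 and 8.60 to 20.9 and 17.5 RPM, a change of 1.01 ± 0.15 (limma adjusted p = 1.96e-07). At a distance of 33.1 kb, the region at chr9:42748853-42749877 was at 10.3 and 12.1 RPM in Gel and at 8.73 and 6.40 RPM in CuNZ@Gel, and was called lower (-0.52 ± 0.18, limma adjusted p = 0.0141). In reads per region the falling one stood above the rising one in both Gel libraries, and below it in both CuNZ@Gel libraries. Another called region, at chr9:42707217-42707439, went from 0.933 and 0.928 to 4.00 and 3.11 RPM (1.23 ± 0.28, limma adjusted p = 0.000299). It was the single receptor region with a peak in both CuNZ@Gel libraries and in neither Gel library. Without CuNZ@Gel replicate 1 the gene was not called (0.25). On the background scale the gene was at -0.64 and was called lower (limma adjusted p = 0.0195), with neither rising region called (0.03 and 0.56). The fall of the middle region was not called without Gel replicate 2 (-0.41), without CuNZ@Gel replicate 2 (-0.32) or on library totals (-0.26).

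Grik5 went from 10.1 and 7.74 to 12.4 and 13.4 RPM over 3 regions, a change of 0.50 ± 0.17 (limma adjusted p = 0.0156). The groups did not overlap. The region at chr7:24746813-24747165 moved, from 2.33 and 2.54 to 5.09 and 4.98 RPM (0.81 ± 0.24, limma adjusted p = 0.00434), and the other 2 were not called. The gene was not called without Gel replicate 2 (0.32), without CuNZ@Gel replicate 2 (0.44) or with the trend removed (0.31), and the region was not called without Gel replicate 1 (0.77). The gene stood at -0.47 and the region at -0.0061 on the background scale.

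**Figure D3:**
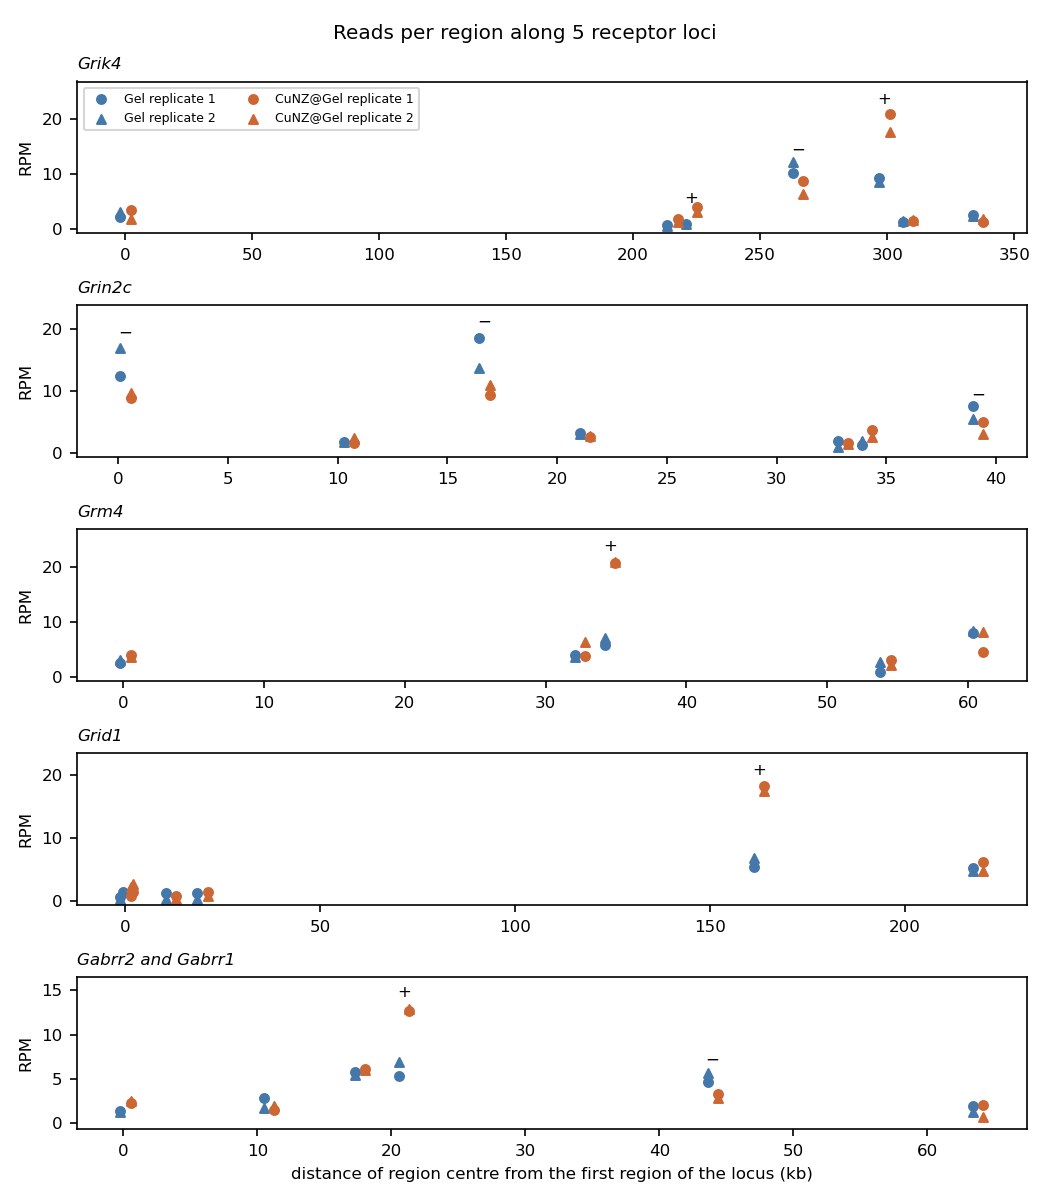
RPM of each region along 5 receptor loci, against the distance of the region's centre from the first region of the locus in kb; Gel points are drawn slightly to the left and CuNZ@Gel points slightly to the right. Plus and minus signs mark regions called higher and lower: Grik4 and the Gabrr2 and Gabrr1 pair show both, Grin2c 3 falls, and Grm4 and Grid1 a single rise each.

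Of the NMDA receptor genes, Grin2c fell, Grin3a rose, and Grin1, Grin2b, Grin2d and Grin3b were not called. Grin2c, which encodes a subunit known from cerebellar granule cells, had the highest sum of the receptor genes in both Gel libraries, but not in CuNZ@Gel, where Grik4 and Grm4 were above it. Such sums grow with the number and width of regions, and are no measure per base. Its 7 regions summed to 46.6 and 43.9 RPM in Gel and to 32.5 and 33.1 RPM in CuNZ@Gel, a change of -0.45 ± 0.09 (limma adjusted p = 0.000298). The groups lay well apart. The regions at chr11:115138273-115139536 and chr11:115122214-115122872 carried most of it. The first was at 18.6 and 13.7 RPM in Gel and at 9.34 and 11.0 RPM in CuNZ@Gel (-0.61 ± 0.16, limma adjusted p = 0.00128). The second was at 12.4 and 17.0 RPM in Gel and at 8.85 and 9.60 RPM in CuNZ@Gel (-0.60 ± 0.16, limma adjusted p = 0.00203). A further lower region, at chr11:115161096-115161710, was at 7.52 and 5.44 RPM in Gel and at 4.97 and 3.11 RPM in CuNZ@Gel (-0.58 ± 0.22, limma adjusted p = 0.0301). The 4 weaker Grin2c regions were not called. Neighbouring regions named for other genes were also called lower. An Fdxr region 5.83 kb after the Grin2c regions went from a mean of 121 to 63.2 RPM (-0.93). A Nat9 region 11.5 kb before them went from 25.4 to 13.4 RPM (-0.88). Another region of each, 14.3 kb after and 6.11 kb before, was not called (0.15 and -0.42). Grin2c as a gene was called lower with each library left out in turn, and was not called on library totals (-0.18, adjusted p = 0.120). On library totals the 3 lower Grin2c regions, at -0.345, -0.338 and -0.344, were not called either. Single regions lost their call when a library was left out: the first without Gel replicate 1 (-0.40), the second without Gel replicate 2 (-0.39), and the last without Gel replicate 1 (-0.38) or CuNZ@Gel replicate 2 (-0.31).

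Grin3a, which encodes a subunit that lowers calcium entry through the receptor, went from 0.408 and 0.866 to 1.82 and 3.29 RPM in its single region, at chr4:49947121-49947432. The change was 1.10 ± 0.31 (limma adjusted p over regions = 0.00321). It was not called without Gel replicate 1 (0.90), without CuNZ@Gel replicate 2 (0.80) or on the background scale (0.54), and with the trend removed (0.78) it was called as a region but not as a gene (adjusted p = 0.0452 and 0.0590). In Grin2b, a subunit gene prominent in the developing brain, 1 region of 3, at chr6:136107474-136107885, went from 4.2 and 3.9 to 6.43 and 6.13 RPM (0.53 ± 0.21, limma adjusted p = 0.0390). Leaving out any 1 library ended this call, with changes from 0.49 to 0.57, as did removing the trend (0.41) and the background scale (-0.35), and Grin2b as a gene was not called (0.34, adjusted p = 0.0953). Grin1, the subunit that every NMDA receptor contains, was at 13.9 and 13.0 RPM in Gel and at 17.7 and 14.4 RPM in CuNZ@Gel and was not called. Grin2d (0.18) and Grin3b (-0.38), which encode further subunits of the receptor, were not called either.

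Grm4 rose and held the receptor region with the smallest adjusted p. It encodes a presynaptic receptor that lowers transmitter release. Its 5 regions summed to 21.8 and 25.3 RPM in Gel and to 36.5 and 41.5 RPM in CuNZ@Gel, a change of 0.71 ± 0.11 (limma adjusted p = 1.82e-05). The gene turned to -0.32 on the background scale. The region at chr17:27719596-27720725 held 102 and 116 reads in Gel and 171 and 236 reads in CuNZ@Gel, although the CuNZ@Gel libraries were smaller. In RPM it went from 5.95 and 7.18 to 20.7 and 21.0. Its change was 1.53 ± 0.16 (limma adjusted p = 1.47e-11), and it was called higher in all 13 alternatives, the background scale included (0.57, adjusted p = 0.0483). A region 1.39 kb before it was not called and had overlapping groups, with 4.08 and 3.78 RPM in Gel and 3.88 and 6.40 RPM in CuNZ@Gel. The strongest Grm4 region in Gel, at chr17:27745831-27746726, was at 8.05 and 8.48 RPM in Gel and at 4.61 and 8.27 RPM in CuNZ@Gel, and was not called.

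Grm5, a receptor that releases calcium from internal stores, went from 1.69 and 1.24 to 3.76 and 2.58 RPM over 2 regions (0.75 ± 0.28, limma adjusted p = 0.0260). The gene was not called without Gel replicate 1 (0.88), without Gel replicate 2 (0.62), without CuNZ@Gel replicate 1 (0.54) or with the trend removed (0.51), and was at 0.03 on the background scale. Its region at chr7:87474158-87474480 carried the rise, from 1.63 and 0.805 to 3.28 and 2.04 RPM (0.73 ± 0.30, limma adjusted p = 0.0416). That region was not called on the background scale (0.05), with the trend removed (0.46), without Gel replicate 2 (0.45), without CuNZ@Gel replicate 1 (0.48) or in voom on the recovered reads (1.08). Grm2 had a single weak region with overlapping groups. Grm8, a presynaptic receptor like Grm4, had a single region at 8.75 and 7.55 RPM in Gel and 7.64 and 7.82 RPM in CuNZ@Gel, with a change of -0.06 ± 0.18. Grm3 had 5 and 4 reads in Gel and 4 and 17 reads in CuNZ@Gel and was not tested.

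Of the GABA-A receptor genes, Gabra5 and Gabrr2 were called higher and Gabrr1 lower. Gabra5 encodes an alpha subunit found mainly outside synapses in the hippocampus. It went from 3.50 and 3.84 to 10.4 and 8.09 RPM over 3 regions, a change of 1.13 ± 0.20 (limma adjusted p = 8.60e-05). The region at chr7:57179322-57179871 went from 1.11 and 2.17 to 5.94 and 5.42 RPM (1.37 ± 0.25, limma adjusted p = 1.32e-05). Neither was called on the background scale, with 0.23 for the gene and 0.59 for the region. A weak region 18.7 kb away, at chr7:57160423-57160593, had 0 reads in both Gel libraries and 16 and 7 reads in CuNZ@Gel, at least 13.1-fold higher over the same floor, and was not tested. The remaining region, 8.56 kb on the other side, had overlapping groups, with 2.39 and 1.67 RPM in Gel and 2.55 and 2.04 RPM in CuNZ@Gel.

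The rho subunit genes Gabrr2 and Gabrr1 are neighbours on chromosome 4, and they moved in opposite directions. Gabrr2 summed to 15.3 and 15.2 RPM in Gel and to 22.4 and 23.3 RPM in CuNZ@Gel, a change of 0.55 ± 0.12 (limma adjusted p = 0.000787). Its region at chr4:33076203-33076495 went from 5.36 and 6.87 to 12.6 and 12.9 RPM (0.96 ± 0.18, limma adjusted p = 1.08e-05). On the background scale the gene was at -0.45 and the region at 0.01, and neither was called. The next region of the gene, 2.90 kb away, was at 5.77 and 5.44 RPM in Gel and at 6.06 and 5.95 RPM in CuNZ@Gel and was not called. Across a gap of 22.6 kb, the Gabrr1 region at chr4:33099076-33099721 was at 4.66 and 5.69 RPM in Gel and at 3.28 and 2.84 RPM in CuNZ@Gel (-0.60 ± 0.23, limma adjusted p = 0.0300). Gabrr1 as a gene was at 6.59 and 6.93 RPM in Gel and at 5.34 and 3.55 RPM in CuNZ@Gel, a change of -0.53 ± 0.21 (limma adjusted p = 0.0413). Without Gel replicate 1, Gel replicate 2 or CuNZ@Gel replicate 2 the gene was at -0.56, -0.50 and -0.29 and the region at -0.72, -0.48 and -0.53, and neither was called. Library totals also ended both calls (-0.29 for the gene and -0.38 for the region). Gabrr3, Gabra6 and Gabrp, the last a subunit known from tissues outside the brain, each had 1 region that was not called. The Gabrp region was at 2.45 and 3.40 RPM in Gel and at 3.52 and 2.04 RPM in CuNZ@Gel.

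The receptor regions were weak ones, and the table as a whole changed with level. Over the 58 tested regions the median place was at percentile 31.7 of all tested regions by mean level, counted in reads per region and not per base. Of the 58, 0 lay from percentile 75 to 100, where 64.0% of all regions were called lower and 9.88% higher. From percentile 0 to 25, 6 of 27 receptor regions were called higher (22.2%) and 0 lower, against 24.96% and 1.45% of all regions there. From percentile 25 to 50, 2 of 14 were called higher (14.3%) and 1 lower (7.14%), against 24.97% and 5.45% of all regions. From percentile 50 to 75, 5 of 17 were called higher (29.4%) and 4 lower (23.5%), against 24.9% and 16.7% of all regions. Those 5 were the leading regions of Grm4, Grid1, Grik4 and Gabrr2 and the Grin2b region. Their sum was 31.8 ± 2.14 RPM in Gel and 76.9 ± 2.86 RPM in CuNZ@Gel (SD over n = 2 libraries each), a ratio of 2.42. The other 59 receptor regions went from 181 ± 1.30 to 193 ± 2.97 RPM, a ratio of 1.07. These 5 were picked for their rise, so the 2 ratios describe where the added reads lay and carry no test. The sum over all 64 regions went from 213 ± 3.44 to 270.2 ± 5.83 RPM.

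**Figure D4:**
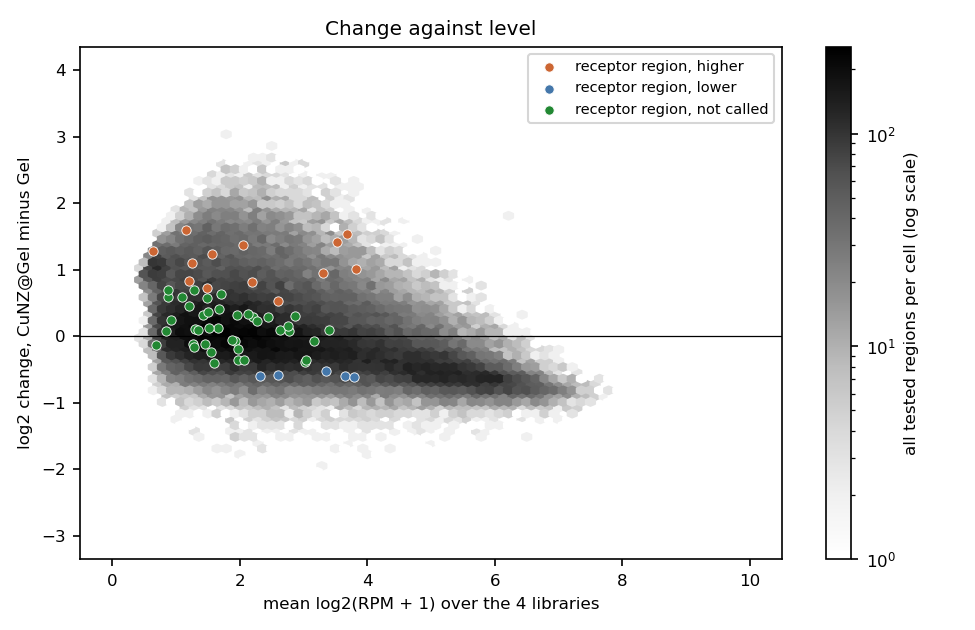
Log2 change, CuNZ@Gel minus Gel, against mean log2(RPM + 1) over the 4 libraries; grey cells count all 77014 tested regions on a log scale and coloured points are the 58 tested receptor regions. The grey cloud bends below zero at high levels, where no receptor region lies, and 5 of the 13 rising receptor regions lie at or above the median level.

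Peaks were called on each library alone, and the libraries differed in depth. Of the 64 regions, 25 had a peak in a single library (39.1%, against 29.9% of all regions) and 9 in all 4 (14.1%, against 39.6%). The 9 belonged to Gabrr2, Grin2b, Grin2c, Grid1, Grik4, Grik5 and Grm8. A peak in both Gel libraries and in neither CuNZ@Gel library was listed for 10 regions (15.6%, against 11.0% of all regions). Of these, limma called 2 lower, the Gabrr1 region and the last of the lower Grin2c regions, and the other 8 were not called. The reverse pattern was that of 1 Grik4 region (1.56%, against 2.3% of all regions). The median width of the receptor regions was 325.5 bases, against 485 over all regions. The leading Grm4 region had no peak in Gel replicate 1 although it held 102 reads there.

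The other genes of glutamate and GABA signalling, a list of 72 in 6 roles, did not share one direction. Of these, 62 had regions and 60 were tested. Limma called 17 higher (28.3% of the 60, against 20.5% of all genes) and 22 lower (36.7%, against 36.1% of all genes), with a median change of -0.03. With the trend removed the counts were 16 (20.7% of all genes) and 13 (15.4%). The counts by role that follow are on the deposited scaling, to be read against the same 20.5% and 36.1%. Auxiliary subunits of glutamate receptors, which tune gating and trafficking, were called higher in 6 and lower in 2 of 10 genes (5 and 2 with the trend removed). Scaffold and trafficking genes of glutamate receptors were called higher in 4 and lower in 7 of 21 (5 and 4 with the trend removed), and those of GABA-A receptors higher in 2 and lower in 5 of 10 (1 and 1). Genes of glutamate synthesis and transport were called higher in 4 and lower in 5 of 11 (5 and 2). Genes of GABA synthesis, transport and breakdown were called lower in 2 of 6 (Gad2 and Slc6a12), and the other 4 were not called. The GABA-B receptor, the G protein-coupled GABA receptor, has subunits encoded by Gabbr2 and Gabbr1. Gabbr2 fell from 40.3 ± 5.48 to 20.7 ± 4.10 RPM (-0.93 ± 0.13). Gabbr1, at 0.883 ± 0.589 RPM in Gel and 2.11 ± 0.410 RPM in CuNZ@Gel (0.75 ± 0.32), was called higher at a limma adjusted p of 0.0486, and the call was lost with the trend removed (0.44, adjusted p = 0.301) and on the background scale (0.17).

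The largest rises on this list were in Slc1a2, the main glutamate uptake transporter of astrocytes, with 14.5 ± 0.240 RPM in Gel and 38.9 ± 2.39 RPM in CuNZ@Gel (SD over n = 2 libraries each), and in Dlgap2, a scaffold gene of excitatory synapses, from 25.3 ± 1.19 to 65.0 ± 1.5 RPM. Their changes were 1.36 ± 0.11 and 1.33 ± 0.09. Slc17a6, a vesicular glutamate transporter gene, followed with 1.26 ± 0.15, and Shisa9, an AMPA receptor auxiliary subunit gene, with 1.21 ± 0.10. The largest falls were in Glul, the glutamine synthetase gene, from 72.2 ± 2.91 to 34.2 ± 1.03 RPM (-1.06 ± 0.08), and in Gad2, a GABA synthesis gene (-0.95 ± 0.11). Gabbr2 came next, and then Homer1, a scaffold gene that links metabotropic receptors to calcium stores (-0.85 ± 0.08). With the trend removed Glul was at -0.54 and Homer1 at -0.31, both still called lower. On the background scale the 4 rising genes were not called, with changes from 0.18 to 0.35. Of the 60 genes, 0 were called higher by limma on that scale (2.78% of all genes) and 0 had an unadjusted p under 0.05 in that direction, while 43 were called lower (75.5% of all genes).

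**Figure D5:**
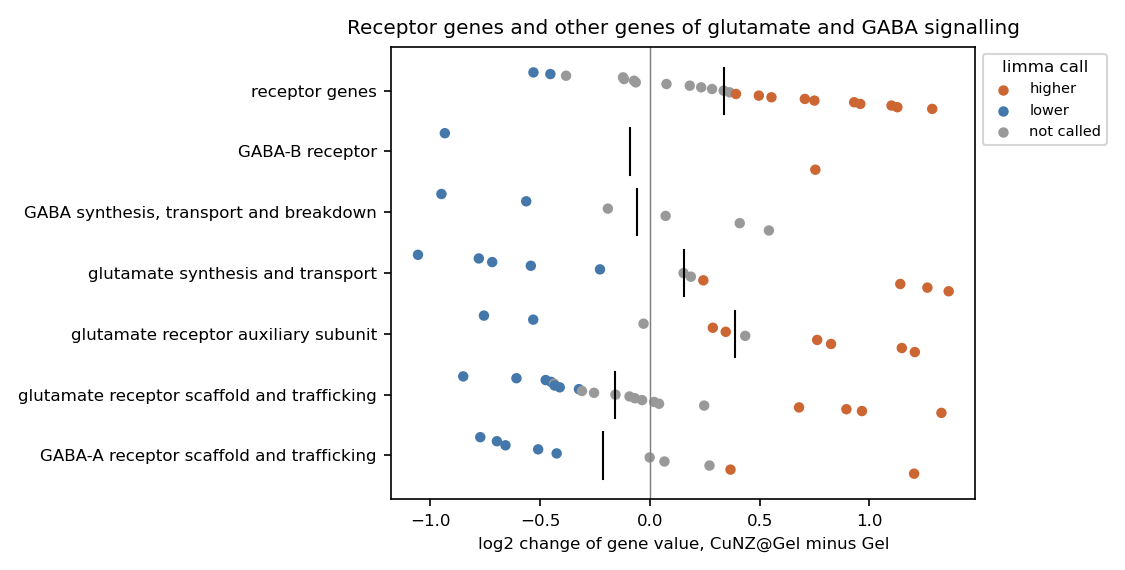
Log2 change of each tested gene, CuNZ@Gel minus Gel, for the 23 receptor genes in the top row and the 60 other genes of glutamate and GABA signalling by role; black bars are medians and colours give the limma call. The receptor genes have 10 orange and 2 blue points, whereas scaffold genes of both systems show more falls than rises on this, the deposited, scaling; with the trend removed they do not.

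Marker genes were read in the same tables. All 10 macrophage markers had regions, and their summed level was 1389 to 1406 RPM in Gel and 1060 to 1074 RPM in CuNZ@Gel, with 7 called lower (36.1% of all genes) and 1 higher (20.5%). With the trend with level removed that balance turned, with 2 lower (15.4% of all genes) and 4 higher (20.7%) and a median change of 0.047. Of 10 neuron markers, Syt1 and Elavl4 had no region in the tables used here and Nefm had no read in 3 libraries. The 8 with regions summed to 62.4 to 67.1 RPM in Gel and 63.6 to 66.1 RPM in CuNZ@Gel, so their summed ranges overlapped. Of these, 7 were tested. Limma called 2 (Snap25 and Nefl) higher (20.5% of all genes) and 2 (Tubb3 and Elavl3) lower (36.1%). With the trend removed it called 1 higher (20.7%) and 1 lower (15.4%). Of 10 glia markers, 8 had regions and were tested. Their sums were 571 to 591 RPM in Gel and 525 to 532 RPM in CuNZ@Gel, mostly from Mbp. Limma called 2 higher (20.5% of all genes) and 1, Mbp, lower (36.1%). With the trend removed 2 were called higher (20.7%) and 0 lower (15.4%). Mbp itself was called higher there (0.20, limma adjusted p = 2.07e-05). On the deposited scaling the macrophage sum was lower in CuNZ@Gel while the receptor sum was higher, and its part in the receptor result was not tested.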

How the data were processed

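Accessibility was measured by ATAC-seq in 4 libraries of RAW264.7 cells, 2 titled Gel and 2 titled CuNZ@Gel. The submitters' processing notes name the build GRCm39 and, with no role or order, MACS2 2.2.8, Picard 2.27.5, SAMtools 1.17, Bowtie2 2.3.4.3 and fastp 0.23.1. The authors deposited log2 values per region, which were read as log2(RPM + 1), because 100% of the low values then lay within 0.1 of a whole number of reads. Each library also has a peak list, in which the authors deposited a ratio (fold over background), p and q as -log10 values, and an integer score. These are the authors' own and serve here to describe or filter peaks. Merging the lists with a gap of up to 1 base gave the 80929 regions of the value tables, in the same order, and so their coordinates, counted from 1; of 77099 regions that could be checked, 77097 lay on the chromosome of their gene. Exons and introns were not analysed here. Scaling factors per library were 0.910 and 0.902 (Gel) and 1.11 and 1.10 (CuNZ@Gel).

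Regions that reached 10 reads (at median depth) in 2 libraries and 15 reads in total were tested with limma 3.58.1 in R 4.3.3 (two-sided, with an intensity trend; Benjamini-Hochberg over 77014 regions or 25900 genes, threshold 0.05), with no replicate block. Gene values are log2(sum of RPM + 1). A count test had been planned for raw counts; limma was used because the values are on a log2 scale. It was tested on simulated data. Alternatives were other scalings (median-of-ratios, library totals, cyclic loess to remove the trend with level, genome background), filters, a pseudocount of 0.1 RPM, voom on the recovered reads, the replicate number as a block, leaving out each library, and other peak limits. Values per library are given for every called gene, the 3 genes of highest sum, genes with regions called in both directions and, per receptor class, the strongest region and the called region of largest change, and for the 4 largest called rises and falls among pathway genes; values of other members were added after they were seen. Of the members, 2 genes are counted but not reported singly here. The members and lists were chosen with earlier results of these data known. Promoter windows are from RefSeq on GRCm38.p6. Depth is that of reads in regions; floors cover counting error only.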

Additional observations from a re-analysis of the deposited data

How the results depend on the processing

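The background scale turned the median change of receptor genes to -0.54 and of regions to -0.53, and turned Gabrr2 (-0.45), Grid1 (-0.077), Grik4 (-0.64), Grik5 (-0.47), Grm4 (-0.32), the called Grin2b region (-0.35) and the called Grik5 region (-0.0061). On it 3 regions were called higher and 24 lower, 1 gene higher and 11 lower, and 0 pathway genes higher (0 at an unadjusted p under 0.05) and 43 lower. With the trend with level removed the medians were 0.12 (genes) and 0.063 (regions), with 6 receptor genes higher and 13 pathway genes lower. Library totals gave medians of 0.54 and 0.42, with 0 receptor genes and 0 regions lower in limma (0 and 2 at an unadjusted p under 0.05) and 13 pathway genes lower. A stricter filter, which tested 26 receptor regions, gave a region median of 0.089, with 5 regions higher and 5 lower. Leaving out 1 library gave 9 to 13 regions higher and 2 to 5 lower, 7 to 8 genes higher and 1 to 2 lower, and 15 to 17 pathway genes higher and 19 to 22 lower; the fewest lower regions were without Gel replicate 1 or 2 (2 each). With the replicate number as a block, 14 regions were higher and 5 lower, and 10 genes higher and 2 lower. For library totals, the stricter filter, the left-out libraries and the block, no share over all features is given. The counts under those settings therefore cannot be set against the whole table. Deviations of same-numbered libraries correlated at 0.0163 over regions and 0.0429 over genes. Such a value cannot show whether these libraries shared a culture or a day, and the labels do not say. Regions with a peak in both CuNZ@Gel libraries alone numbered 0 at a -log10 q of at least 5, 2 at an overlap of 50% and 3 when every list was reduced to its 42612 best peaks, against 1, and those in both Gel libraries alone 5 with lists so reduced, against 10. Over these alternatives 126 gene calls were kept, 22 were lost with the same sign and 5 changed sign. All 5 changes of sign were on the background scale. Of those genes only Grik4 was called lower there, and Gabrr2, Grid1, Grik5 and Grm4 were not called. The cause of these shifts was not tested. Weak regions rest on few reads, above all in CuNZ@Gel, so a missing call there does not show an equal level.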
